A study of Mus musculus with 2 samples.

Results

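The translation initiation and elongation factor genes described here were the protein-coding autosomal genes whose symbol begins with Eif or Eef followed by a digit, a rule that uses the name and no measured value. Of 65 such genes in the annotation, 64 had a row in the deposited tables, among 20337 protein-coding autosomal genes and 43346 Ensembl gene rows in all. Eef1akmt4 had no row and was not analysed here, and Eif1ax, Eif2s3x and Eif2s3y lie on the sex chromosomes. The data are 2 total RNA libraries of midbrain from B6NCrl mouse embryos at 14.5 days of development, which form 1 group with no treatment. Each library came from 1 pup, and the pups, called embryo 1 and embryo 2, were collected on different days, per the labels. The label for sex reads pooled for both libraries, which does not match a single pup. The labels name 1 tissue at 1 age, so the data allow a description of levels and of how far 2 animals differ, and no test between groups.

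Eukaryotic initiation factors bring the ribosome, the initiator tRNA and the capped mRNA together and place the ribosome at a start codon. Elongation factors then deliver each aminoacyl-tRNA and move the ribosome along the message. Cells adjust protein synthesis chiefly through kinases that phosphorylate eIF2 alpha and through proteins that hold the cap-binding protein eIF4E, and in neurons and muscle the delivery factor eEF1A1 is known to give way to its close relative eEF1A2 after birth.

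The tables assigned 31.7 × 10⁶ reads to genes in embryo 1 and 29.2 × 10⁶ in embryo 2, of which the translation factors took 1.43% and 1.28%. Levels are given as TPM, the authors' number of transcripts of a gene relative to all transcripts of the library, which is counted per length and can be compared between genes. Differences between the embryos are log2 ratios of embryo 2 over embryo 1, from expected read counts scaled with the TMM method, with an exact 95% interval that covers counting error only. Deposited TPM ran lower in embryo 2 over the 12449 protein-coding autosomal genes with 100 or more counts in all, with a median log2 ratio of -0.14 against -0.01 for scaled counts, so a pair of TPM values can lean towards embryo 1 where the scaled counts do not. The 7 regional genes of the midbrain list were all detected and summed to 291 TPM in embryo 1 and 236 in embryo 2. By scaled counts, 3 of them were higher in embryo 1 and 4 in embryo 2. Embryo 1 carried more signal of non-neural cell types: 8 mesenchyme and meninges genes summed to 404 TPM against 10.9 in embryo 2, 8 microglia and macrophage genes to 129 against 47.1, 6 endothelial genes to 130 against 83.7 and 6 erythroid genes to 4050 against 2614. Genes of cycling cells, which midbrain progenitors also express, summed to 408 against 238 TPM over 8 genes, while 8 progenitor genes summed to 1905 and 2016 and 8 genes of immature neurons to 4753 and 5114. Most of the progenitor sum was Fabp7, at 1214 and 1511 TPM. By scaled counts, 5 progenitor genes were higher in embryo 1 and 3 in embryo 2, and of the immature neuron genes 2 and 6. The part of these cells in the differences below was not tested, and in bulk tissue fewer cells of a type and less RNA per cell cannot be told apart.

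Nearly all translation factor genes were expressed in both midbrains. Detection, taken as a TPM of 1 or more in each embryo, held for 62 of 64 genes, against 60.6% of all protein-coding autosomal genes. The median level was 66.1 TPM, against 5.06 over all protein-coding autosomal genes, and 53 genes reached 10 TPM and 24 reached 100 TPM in both embryos. The 2 genes that were not detected were Eef1akmt3, a methyltransferase of eEF1A, with 9 and 3 reads (0.18 and 0.06 TPM), and Eif4e1b, a relative of the cap-binding protein known from oocytes, with 0 reads in each library. A count of 0 allows up to 3 reads.

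**Figure D1:**
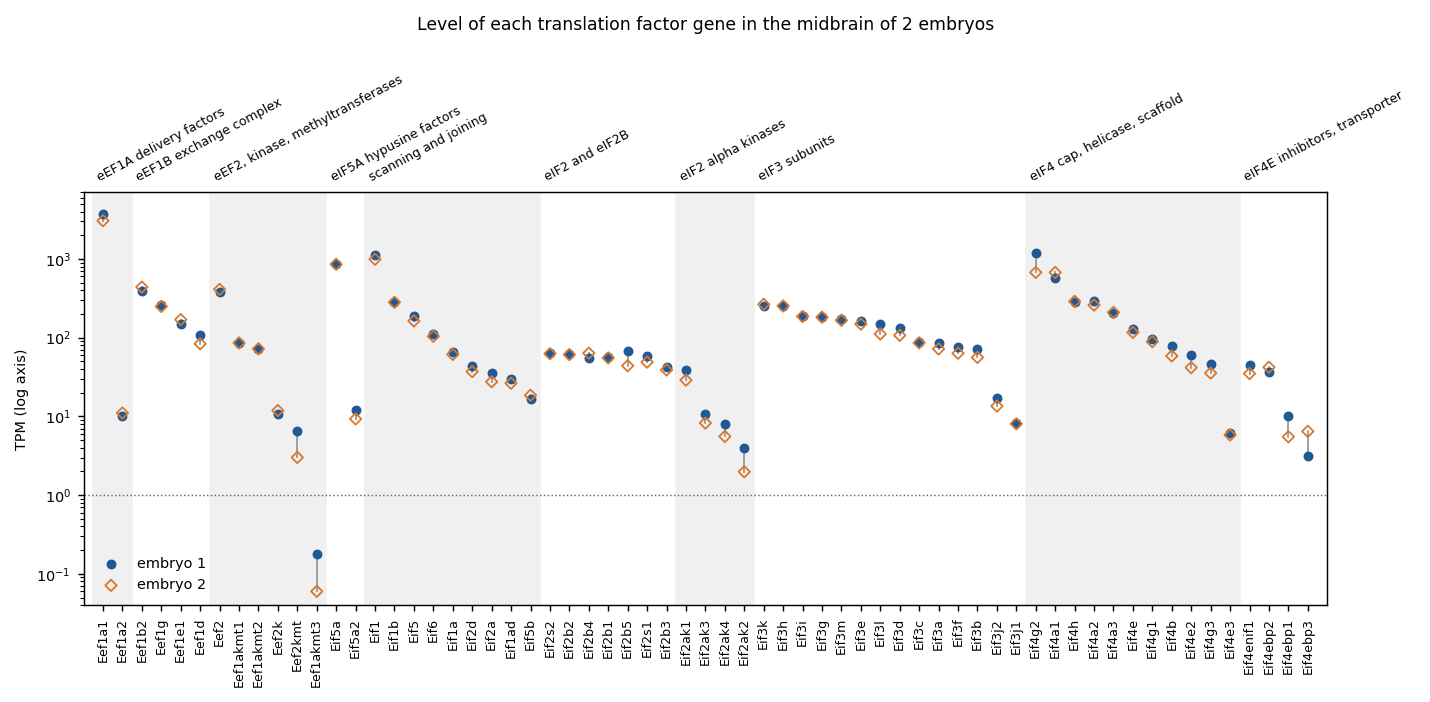
Level of each translation factor gene in TPM (log axis), grouped by role, with 1 filled circle for embryo 1 and 1 open diamond for embryo 2. Eef1a1 stands highest at 3697 and 3059, the dotted line marks a TPM of 1, and Eif4e1b is left out because it is listed at 0.

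Among the elongation factors, Eef1a1, the GTPase that carries aminoacyl-tRNA to the ribosome, was by far the most abundant gene of all 64. It stood at 3697 TPM in embryo 1 and 3059 in embryo 2 (3378 ± 451, SD, n = 2), from 101448 and 81376 reads. This was 27.7% and 25.8% of the summed TPM of all translation factors and 3.06 and 3.09 times the next gene in each embryo. Its paralog Eef1a2 stood at 10.26 and 11.04 TPM (10.7 ± 0.552, SD, n = 2), from 390 and 419 reads. Per length, Eef1a1 thus exceeded Eef1a2 360-fold in embryo 1 and 277-fold in embryo 2, and Eef1a2 made up 0.277% and 0.360% of the pair. Part of the Eef1a1 level came from Eef1a1-204, a processed transcript of 505 bases without a coding frame, at 716 and 679 TPM. The coding Eef1a1-201 alone, at 2930 and 2322 TPM, exceeded Eef1a2 286-fold and 210-fold. The scaled counts of Eef1a1 were lower in embryo 2, with a log2 ratio of -0.17 (interval -0.18 to -0.16), and those of Eef1a2 were higher, at 0.25 (0.05 to 0.45). The genes lie on different chromosomes, Eef1a1 on chromosome 9 at 78478449 to 78489151 and Eef1a2 on chromosome 2 at 181147653 to 181157014 (GRCm38, both on the minus strand). Skeletal muscle, the other main site of Eef1a2, was close to absent from the dissections: 7 muscle genes summed to 5.15 and 5.10 TPM, 1 of them (Acta1) was detected, and Myod1 and Myog were at 0.06 and 0.07 TPM in embryo 1 and at 0 in embryo 2.

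Reads of Eef1a1 can be confused with its processed pseudogenes, which are near-copies of its mRNA inserted elsewhere. The 4 pseudogene rows that match Eef1a1 closely held reads equal to 0.269% of its count in embryo 1 and 0.242% in embryo 2. Over all 64 genes, 13 had such a row, and the largest amount was 2.35% and 2.39%, for 2 copies of Eif4a1. The assigned reads of the copies with a row were therefore small beside those of the parent genes, although reads that the authors' counting moved between copies cannot be seen in these tables. Further close copies had no row, such as AC133509.1, which matches Eef1a1 at 97.3% over 1387 bases. Their reads could not be counted.

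The other elongation factors were also abundant. Eef2, the translocase that moves the ribosome by a codon, stood at 382 and 410 TPM, so Eef1a1 exceeded it 9.69-fold and 7.45-fold. Of the exchange complex that recharges eEF1A with GTP, Eef1b2 stood at 386 and 439 TPM and Eef1g at 259 and 249. Eef1d, lowest of the complex, stood at 108 and 83.5 TPM. Eef1e1, listed with these genes here, encodes a scaffold protein found with aminoacyl-tRNA synthetases and stood at 149 and 169 TPM. The complex thus spanned 386 to 108 TPM in embryo 1 and 439 to 83.5 in embryo 2, with the same gene at each end. Transcripts not annotated as protein-coding made up 43.0% and 44.6% of the Eef1b2 TPM, against 5.72% and 8.18% for Eef1g. The place of Eef1b2 above Eef1g includes them and need not hold for coding transcripts alone.

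The enzymes that act on elongation factors were lower than their substrates. Eef1akmt1 and Eef1akmt2, lysine methyltransferases of eEF1A, stood at 85.5 and 85.8 TPM and at 72.3 and 72.3. Eef2k, the kinase that inhibits eEF2, stood at 10.9 and 11.9 TPM, and Eef2kmt, the eEF2 methyltransferase, at 6.56 and 3.01. Eif5a, which carries the hypusine residue and eases the joining of difficult residues, stood at 872 and 856 TPM, and its paralog Eif5a2 at 12.1 and 9.29. Eif5a therefore made up 98.6% and 98.9% of that pair.

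Start windows are shown for the eEF1A pair, for Eef2 and for 3 further genes with long pyrimidine runs, because mRNAs of the translation apparatus are known for a C followed by pyrimidines at their start (the 5′ TOP motif), which links them to mTOR signalling. RefSeq windows (GRCm38.p6) matched 48 of the 64 genes. Each line below gives 10 bases before and 20 bases from the annotated start, in gene direction, and capitals mark the longest run of C followed by at least 4 C or T bases whose first C lies within 10 bases of that start.
Eef1a1, chr9:78481705-78481734, minus strand: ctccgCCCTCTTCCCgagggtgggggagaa
Eef1a2, chr2:181156996-181157025, minus strand: cctggtctgcgttctcgctcactggttctc
Eef2, chr10:81176621-81176650, plus strand: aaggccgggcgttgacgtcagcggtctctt
Eif3f, chr7:108934405-108934434, plus strand: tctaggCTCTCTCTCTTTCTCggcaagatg
Eif2b5, chr16:20498807-20498836, plus strand: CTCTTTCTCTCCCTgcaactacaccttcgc
Eif4enif1, 1 of 4 windows, chr11:3203009-3203038, plus strand: CCCTTCTTCCggaggagcctctagcccggg

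A run of this kind was found for 16 of the 48 genes (33.3%), against 35.5% of the protein-coding autosomal genes with a window, 36.7% of those detected and 33 of 54 cytosolic ribosomal protein genes (61.1%). The share among the translation factors was thus near that of all genes. The median level was 62.8 TPM for the 16 genes with a run and 83.1 for the 32 without, so a run in these windows did not go with a higher level. The annotated start need not be the base where transcription begins. The run printed for Eif4enif1 lies wholly before it, so a marked run is not shown to be a 5′ TOP motif. The letters TATAAA or TATATAA, the core of a TATA box, were searched in the whole 300-base window on both strands and were found in 6 of the 48 genes (12.5%), all on the gene strand, against 15.7% of protein-coding autosomal genes on either strand and 10.6% on the gene strand. Over the detected genes alone the shares were 9.01% and 5.64%, so the share among the translation factors lay below or above the background with the set of genes compared. Those 6 genes were Eef1a1, Eif1, Eef2, Eif3b, Eif3f and Eif2s1. Capitals mark the letters in the following windows, shown because these genes ranked 1, 2 and 7 by mean level.
Eef1a1, chr9:78481682-78481711, minus strand: gggagaacggTATATAAgtgcggcagtcgc
Eif1, chr11:100319946-100319975, plus strand: caggggcggcTATATAAgtgaatacaggcg
Eef2, chr10:81176606-81176634, plus strand: ggcgtcgaccTATAAAaggccgggcgttg
In Eef1a1 and Eif1 the letters begin at positions 24 and 8 counted from the annotated start as 1, so they lie downstream of it, and in Eef2 they begin 15 bases before it.

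Among the factors of scanning and subunit joining, Eif1, which guards the choice of the start codon, stood at 1136 and 989 TPM and was the second most abundant gene by the mean of the embryos, although Eif4g2 was above it in embryo 1. Its paralog Eif1b stood at 284 and 282 TPM, so Eif1 held 80.0% and 77.8% of the pair. Transcripts not annotated as protein-coding made up 48.6% and 45.3% of the Eif1 TPM, and its rank and its share of the pair include them. The lowest of the 9 genes was Eif5b, the GTPase that joins the ribosomal subunits, at 16.5 and 18.6 TPM. Between them lay Eif5, the GTPase-activating protein of eIF2, at 190 and 163 TPM, Eif6, an anti-association factor, at 111 and 104, and Eif1a, Eif2d, Eif2a and Eif1ad at means of 63.5 to 28.1. Levels within this group therefore covered a wide range, while each gene kept its place near the same level in both embryos.

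The subunits of eIF2 and of its exchange factor eIF2B were measured at similar levels. eIF2 brings the initiator tRNA, and eIF2B reloads it with GTP. Eif2s1 (alpha) stood at 58.9 and 48.9 TPM and Eif2s2 (beta) at 63.4 and 62.5. The gamma subunit, Eif2s3x, lies on the X chromosome and stood at 83.8 and 78.6. The 5 eIF2B genes spanned 67.4 TPM (Eif2b5) to 41.9 (Eif2b3) in embryo 1 and 63.5 (Eif2b4) to 38.9 (Eif2b3) in embryo 2, a ratio of highest to lowest of 1.61 and 1.63. The lowest subunit was the same in both embryos and the highest was not. Transcripts not annotated as protein-coding made up 30.2% and 42.6% of the Eif2b2 TPM and 28.1% and 30.9% of the Eif2b4 TPM. For Eif2b3 they made up 3.18% and 3.89%. The order and the ratios of the eIF2B genes include these transcripts, so they need not hold for coding transcripts alone. The values of Eif2b5, which encodes the catalytic epsilon subunit, were 67.4 and 44.0 TPM, with a log2 ratio of -0.44 (interval -0.52 to -0.36).

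The kinases that phosphorylate eIF2 alpha were lower than their substrate, and all 4 had lower scaled counts in embryo 2. Eif2ak1 (HRI, the heme-regulated kinase) stood at 39.3 and 28.9 TPM and held 63.2% and 64.7% of the summed kinase TPM. Eif2ak3 (PERK, the kinase of the endoplasmic reticulum) stood at 10.8 and 8.23 TPM, Eif2ak4 (GCN2, which senses uncharged tRNA) at 8.10 and 5.56, and Eif2ak2 (PKR, which senses double-stranded RNA) at 3.94 and 1.98. The order of the kinases was the same in both embryos, and the ranges of Eif2ak3 and Eif2ak4 did not overlap. Their log2 ratios ran from -0.35 to -0.23 with a median of -0.31, and the interval excluded 0 for every kinase but Eif2ak2 (-0.76 to 0.04). All 4 genes being higher in embryo 1 stands beside 50.8% of all protein-coding autosomal genes with at least 100 summed counts. Among the 6758 such genes with an effective length of 2400 bases or more, as for 3 of the kinases, 4236 were higher in embryo 1. Eif2ak1 shares 8.59% of its exon bases with Aimp2 on the other strand, and how strands were handled is not stated, so reads in such overlaps cannot be told apart. Of 12 targets of the integrated stress response, the program these kinases start, 10 were detected, 3 of 11 with enough reads were higher in embryo 1 and 8 in embryo 2. Atf4, the transcription factor at its centre, stood at 91.6 and 94.9 TPM, and the single target past 2-fold was the cystine transporter Slc7a11, at 1.83 and 0.43 TPM.

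The 14 eIF3 genes encode the scaffold that holds the small ribosomal subunit during initiation. The 12 core subunits lay between 71.7 TPM (Eif3b) and 253 (Eif3k) in embryo 1 and between 56.1 (Eif3b) and 265 (Eif3k) in embryo 2, a ratio of highest to lowest of 3.53 and 4.72. By mean level the order was Eif3k, Eif3h, Eif3i, Eif3g, Eif3m, Eif3e, Eif3l, Eif3d, Eif3c, Eif3a, Eif3f and Eif3b. The ranges of Eif3l (148 and 111 TPM) and Eif3d (131 and 107) overlapped, as did those of Eif3c (88.0 and 85.9) and Eif3a (86.6 and 71.9). Those of Eif3a and Eif3f (75.8 and 63.4), and of Eif3f and Eif3b, overlapped too. Within each embryo, however, the first gene of every such pair was the higher. The loosely bound j subunit has 2 near-identical genes in the mouse and was lower, Eif3j1 at 8.35 and 8.05 TPM and Eif3j2 at 17.3 and 13.5. Reads of these copies may have been divided between them, and Eif3j1 also shares 18.99% of its exon bases with Spg11 on the other strand, so both values are uncertain. Eif3d shares 43.3% of its exon bases with the antisense gene Gm17638, which itself stood at 1.36 and 1.10 TPM.

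**Figure D2:**
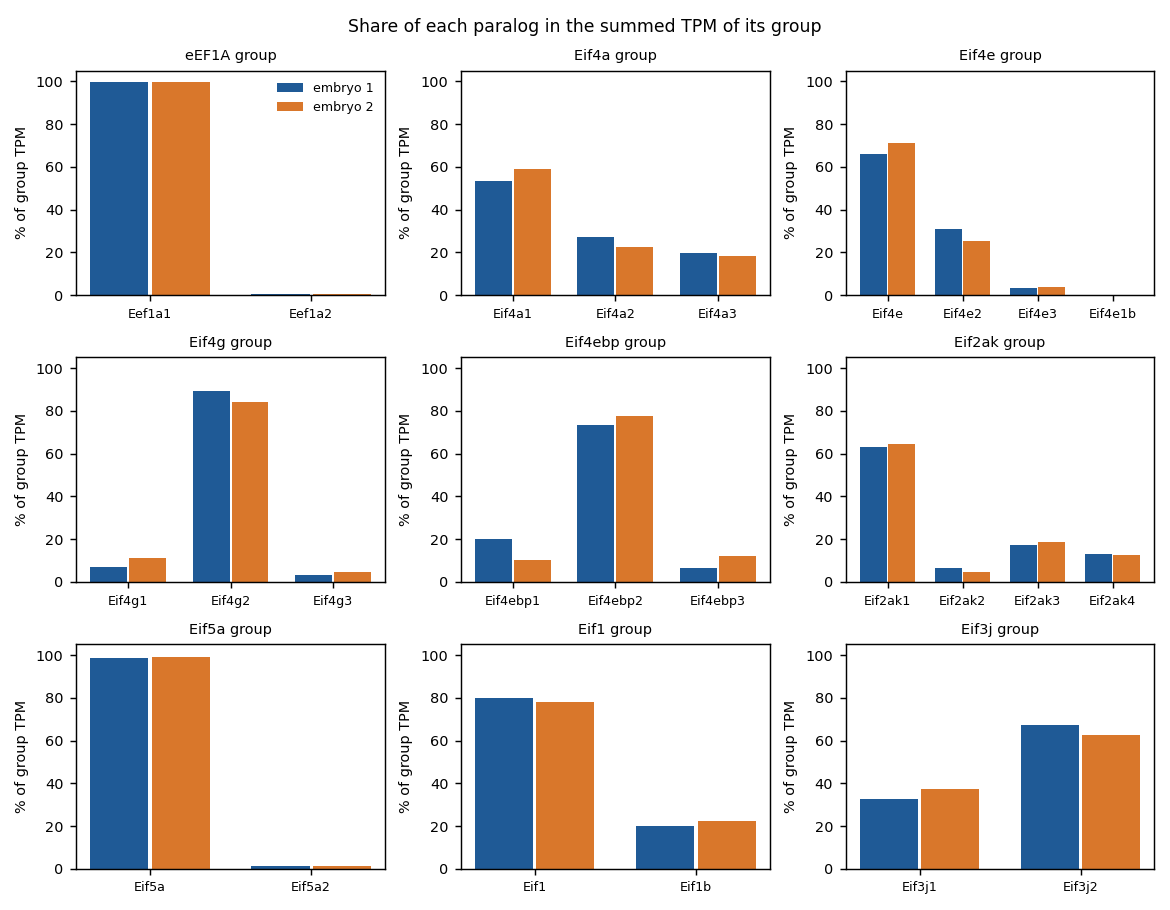
Share of each paralog in the summed TPM of its group, in percent from 0, with 1 bar for each embryo. Eef1a1 and Eif5a hold over 98% of their groups, while Eif4a1 holds 53.3% and 59.0% of the Eif4a group.

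The eIF4 genes recruit capped mRNA, and the highest of them by mean level encodes a scaffold that does not bind the cap-binding protein. Eif4g2 (DAP5), which lacks the eIF4E-binding region of the other scaffolds, stood at 1207 TPM in embryo 1 and 674 in embryo 2, against 95.3 and 88.9 for Eif4g1 and 46.5 and 35.5 for Eif4g3. It held 40.6% and 27.5% of the summed TPM of the 12 eIF4 genes and 89.5% and 84.4% of the 3 Eif4g genes, and exceeded Eif4g1 12.7-fold and 7.58-fold. Among the RNA helicases, Eif4a1 stood at 568 and 673 TPM, Eif4a2 at 288 and 259, and Eif4a3, the helicase of the exon junction complex, at 209 and 209. Eif4a1 therefore held 53.3% and 59.0% of the helicase group. Of the Eif4a2 TPM, 37.4% and 39.7% came from transcripts not annotated as protein-coding. For Eif4a3 they made up 18.99% and 20.79%, and for Eif4a1 6.76% and 7.85%. The helicase shares and the place of Eif4a2 above Eif4a3 include these transcripts and need not hold for coding transcripts alone. The log2 ratio of Eif4a1, 0.38 (interval 0.35 to 0.41), was the second highest of the 62 genes with enough reads. That of Eif4a2 was -0.01 (-0.05 to 0.04). The helicase cofactor Eif4h stood at 283 and 289 TPM and Eif4b at 78.1 and 58.6.

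The cap-binding protein itself was less abundant than these helicases. Eif4e stood at 130 and 117 TPM, its relative Eif4e2 (4EHP, which binds the cap without starting translation) at 60.4 and 41.6, and Eif4e3 at 6.24 and 5.80. Eif4e held 66.1% and 71.1% of the summed TPM of its group. Eif4e3 shares 14.8% of its exon bases with Gm20696 on the same strand, so its level is uncertain. Of the eIF4E-binding inhibitors, Eif4ebp2, the form known as the main one in brain, stood at 37.1 and 42.0 TPM and held 73.6% and 77.8% of the group. Eif4ebp1 stood at 10.1 and 5.51 TPM and Eif4ebp3 at 3.17 and 6.46, so the listed order of these minor forms was not the same in the embryos. Eif4ebp3 shares 67.3% of its exon bases with AC115631.1 on the same strand, so its level is not known here. This order and the shares of the group are therefore uncertain. The summed inhibitors, Eif4ebp3 included, equalled 0.388 of the Eif4e level in embryo 1 and 0.464 in embryo 2. Eif4enif1, which carries eIF4E into the nucleus and was the highest gene of the inhibitor and transporter list by mean level, stood at 44.7 and 35.0 TPM.

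Genes outside the naming rule that work with these factors were detected as widely. All 17 further initiation, termination and recycling factors were detected, with a median log2 ratio of -0.05, 9 higher in embryo 1 and 8 in embryo 2. All 9 enzymes that modify eEF1A, eEF2 or eIF5A were detected, with 2 higher in embryo 1 and 7 in embryo 2. All 12 genes of mTOR and MNK signalling to eIF4 were detected, with a median of -0.10 and 7 higher in embryo 1. Of all protein-coding autosomal genes with at least 100 summed counts, 50.8% were higher in embryo 1. None of these 38 genes passed 2-fold, and the largest difference in the 3 lists was that of Cyfip1, a partner of eIF4E, at 40.4 and 20.1 TPM (log2 ratio -0.82).

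Levels of the translation factors were close in the 2 embryos. Of the 62 genes whose counts summed to 100 or more, 58 differed by less than 1.5-fold, and 31 were higher in each embryo, which stands beside 50.8% of all protein-coding autosomal genes that were higher in the first. Their median log2 ratio was -0.002, against -0.006 for all 12449 such genes, and the median absolute log2 ratio was 0.15, against 0.23. The translation factors were also more abundant, with a median of 66.1 TPM against 5.06 over all protein-coding autosomal genes, and the part of level in this was not tested. All 74 cytosolic ribosomal protein genes and all 17 further initiation, termination and recycling factors also differed by less than 1.5-fold. The even split depended on the scaling: with the ERCC spike-ins as reference 40 genes were higher in embryo 1 and 22 in embryo 2, and by deposited TPM 47 and 15. All genes moved with it, since their median became -0.12 and -0.14, so relative to all genes the translation factors stayed within 0.04 of the middle under each of these scalings. Differences of 2-fold or more were seen for 0 genes in the direction of embryo 1, where 3.52% of all genes passed, and for 1 gene in the direction of embryo 2, where 1.28% passed. At 1.5-fold the counts were 3 genes higher in embryo 1 and 1 in embryo 2, against 8.87% and 5.08% of all genes.

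**Figure D3:**
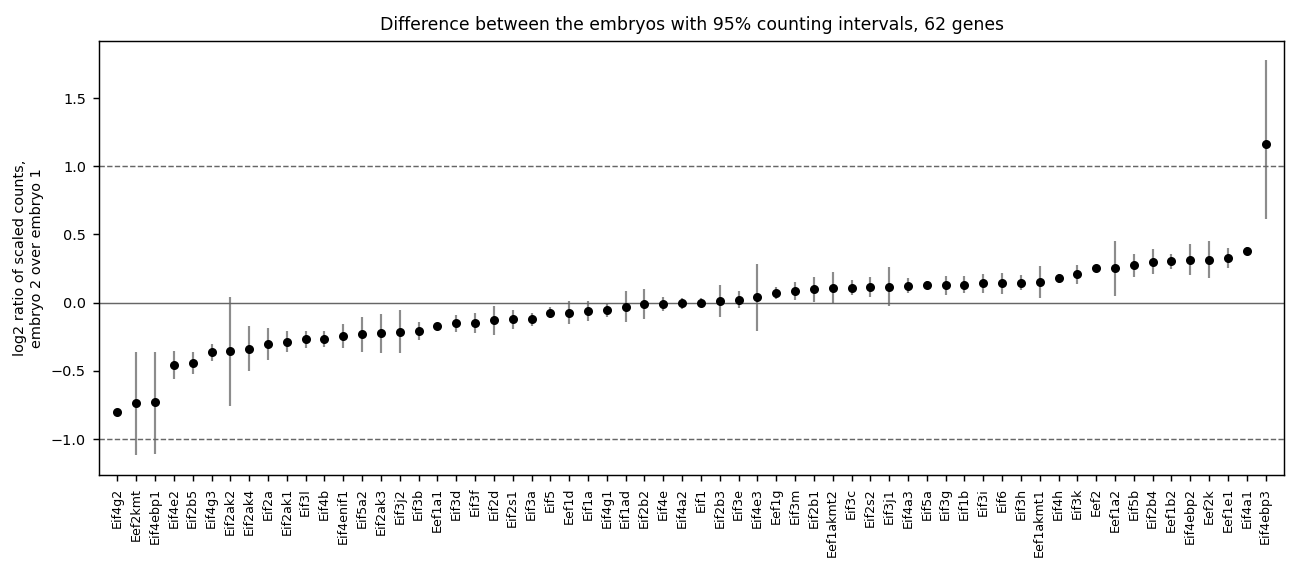
Log2 ratio of scaled counts, embryo 2 over embryo 1, for the 62 genes with at least 100 summed counts, with 95% counting intervals as vertical lines and 2-fold as dashed lines. Eif4g2, Eef2kmt and Eif4ebp1 lie lowest and Eif4ebp3 lies alone past 2-fold.

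The gene past 2-fold was Eif4ebp3, with 39.2 and 79.7 reads and a log2 ratio of 1.16 (interval 0.61 to 1.78). Its count was poorly fixed by the reads, since the authors' posterior SD was 24.3% of the count in embryo 1 and 10.8% in embryo 2. It also shares 67.3% of its exon bases with AC115631.1 on the same strand, a gene with no row in these tables, so its level is not known here.

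Among the genes past 1.5-fold, Eif4g2 had the most reads. It lies on chromosome 7 at 111067750 to 111083030. There were 88233 reads in embryo 1 and 45730 in embryo 2, 1.74-fold more in embryo 1 (interval 1.72 to 1.76) after scaling. The other genes past 1.5-fold in this direction had few reads: Eef2kmt with 170 and 92.2 reads, 1.66-fold higher in embryo 1, and Eif4ebp1 with 171 and 93.0 reads, also 1.66-fold. Eef2kmt shares 17.6% of its exon bases with Alg1 on the other strand, which stood at 31.3 and 31.5 TPM. These 3 genes were higher in the embryo with more mesenchyme, blood and microglia signal, and whether those cells carried the difference was not tested.

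Gene length moved with the ratio. Across the 62 genes, Spearman's rho between the log2 ratio and the effective length was -0.389, and across all 12449 genes it was -0.299, as a description of the same 2 libraries. The median log2 ratio was 0.13 for 15 translation factor genes under 1200 bases, -0.02 for 24 genes from 1200 to 2400 bases and -0.12 for 23 genes from 2400 bases. All genes gave 0.22, 0.05 and -0.10 in the same classes. The 14 eIF3 genes followed this order in part. Eif3k, Eif3h, Eif3i, Eif3g and Eif3m, with effective lengths under 1200 bases, had log2 ratios of 0.21 to 0.09. From 1200 to 2400 bases, Eif3e stood at 0.02, and Eif3l, Eif3d, Eif3f and Eif3j2 at -0.27 to -0.15. From 2400 bases, Eif3a and Eif3b stood at -0.12 and -0.21, but Eif3c and Eif3j1 at 0.11 and 0.12. The 4 kinases, with effective lengths from 2400 bases or, for Eif2ak2, 1706 and 2394 bases, lay below the median of their class. The 74 cytosolic ribosomal protein genes, which are short, had a median of 0.23, with 4 higher in embryo 1 and 70 in embryo 2. Of all 1673 genes under 1200 bases, 333 were higher in embryo 1. The ratio of Eif4g2 stayed at -0.70 after the median of all genes in its length class was subtracted. The cause of the relation with length was not tested.

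**Figure D4:**
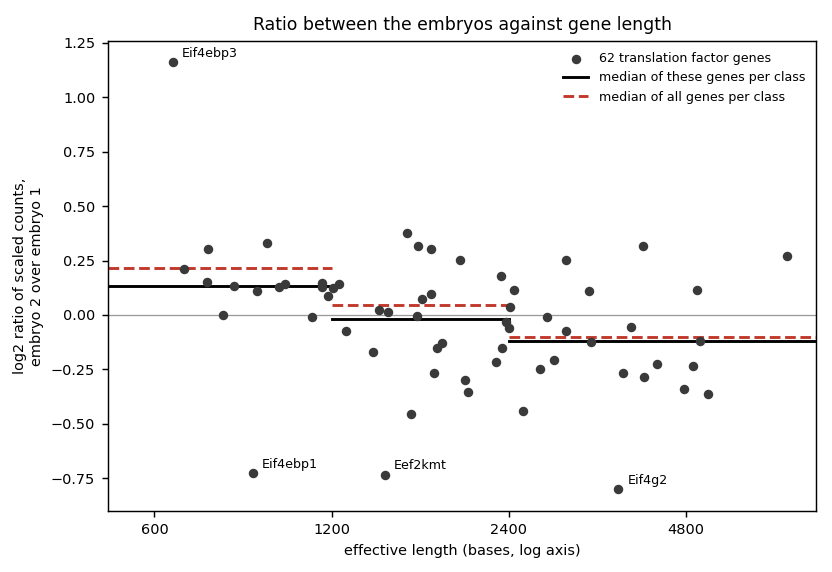
Log2 ratio of scaled counts, embryo 2 over embryo 1, against effective length in bases (log axis) for 62 translation factor genes, with medians per length class as solid lines and those of all protein-coding autosomal genes as dashed lines. The medians fall from 0.13 to -0.12 for these genes and from 0.22 to -0.10 for all genes.

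The transcript tables divide each gene among its annotated transcripts, which are estimates and less certain than the gene totals. The 64 genes had 329 transcripts, of which 323 could be named. Of the 62 detected genes, 51 had a leading transcript with over 50% of the gene in both embryos, and 13 had at least 2 transcripts with 20% or more in both. Protein-coding transcripts held 85.3% and 83.9% of the summed TPM, and transcripts annotated as processed, without a coding frame, 10.9% and 11.4%. The lower level of Eif4g2 in embryo 2 was shared by its 2 leading coding transcripts, Eif4g2-206 at 539 and 205 TPM and Eif4g2-213 at 530 and 321. The share of Eif4g2-206 was thus 44.7% in embryo 1 and 30.5% in embryo 2.

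Short or untranslated forms took a large part of some abundant genes. Eif1 was divided between the coding Eif1-201, at 572 and 532 TPM, and the processed Eif1-202, a form of 383 bases, at 416 and 342. Eef1b2 was divided between the coding Eef1b2-209, at 168 and 191 TPM, and Eef1b2-205, annotated for nonsense-mediated decay, at 129 and 166. Eif2a had a decay form too, Eif2a-207, with 38.5% and 48.3% of the gene, beside the coding Eif2a-201 with 52.3% and 35.8%, so the leading form differed between the embryos. Eif2ak2 was the 1 detected gene whose leading transcript, by mean share, was not coding: the retained-intron form Eif2ak2-204 held 69.5% and 50.5%, although the gene had 129 and 90.8 reads in all.

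In the remaining genes with 2 or more such forms, the named ones were coding transcripts. Eif1a-201 held 74.1% and 58.7% and Eif1a-202 held 25.9% and 41.3%. Eef1d-207 held 28.5% and 20.9% and the longer Eef1d-204 held 26.8% and 37.4%, so the second was the larger in embryo 2 alone. Eif5 was the most even between the embryos, with Eif5-202 at 58.5% and 58.4%. In Eef2k, Eef2kmt and Eif2b5 the leading form held 50.8% and 45.0%, 48.8% and 55.5%, and 75.8% and 77.6%. In Eif4g3 the leader differed between the embryos, with Eif4g3-202 at 36.4% and 26.2% and Eif4g3-205 at 34.0% and 33.3%. Eif2b4 had 3 forms between 22.7% and 28.8%, 1 of them without a name or type in the annotation used. The spread between the embryos was therefore larger for the shares of Eif1a, Eif2a, Eif2ak2 and Eif4g2 than for those of Eif5, Eif1 or Eif2b5.

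**Figure D5:**
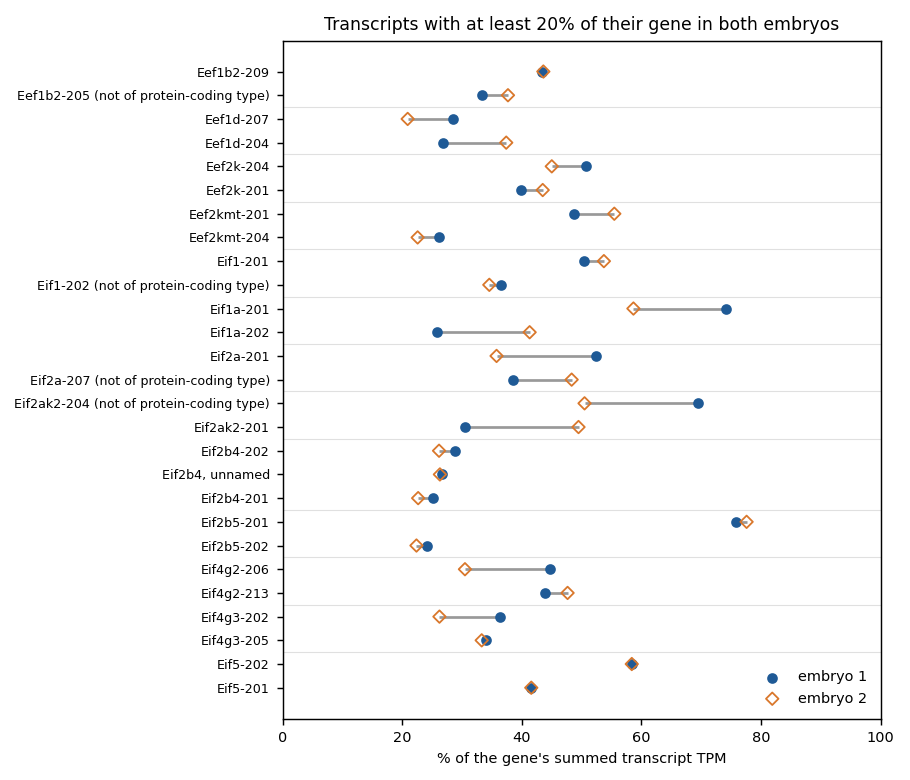
Share of each named transcript in the summed transcript TPM of its gene, in percent, for the 13 genes with at least 2 transcripts at 20% or more in both embryos, with 1 filled circle for embryo 1 and 1 open diamond for embryo 2. Eif5 keeps 58.5% and 58.4% for its leading form, and Eif4g2-206 moves from 44.7% to 30.5%.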

How the data were processed

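Gene and transcript tables were deposited for 2 total RNA libraries (RNA over 200 nt, 10.0 ng input, ERCC spike-ins, per the labels). The authors aligned to mm10 with GENCODE M4, per the record deposited with each sample. The name of the quantifier is not given here. The authors' expected counts estimate the reads of each row, per the file headers, and the deposited TPM were scaled over all rows, spike-ins included. Symbols came from GENCODE M21 (GRCm38) and matched 42462 of 43346 Ensembl rows. Pseudogene copies were matched with blastn 2.17.0 (at least 95% identity over 200 bases). Rounded counts gave TMM factors (edgeR 4.0.16). Ratios used unrounded counts, a prior count of 0.5 and at least 100 summed counts, with exact conditional binomial (Clopper-Pearson) intervals. They cover the counting error of reads only, and can be too narrow even for that, since several reads can come from 1 molecule. The choice of scaling and the division of reads between rows are not covered. The ratio step was run on simulated counts with known fold changes and counting error only. That run checks the calculation and says nothing of variation between animals. DESeq2 1.42.0 size factors, total counts, spike-ins, TPM ratios, posterior means and other thresholds were tried as alternatives. Genes named in full were the eEF1A pair, the 10 highest, the ends of each role list, paralog groups, genes past 2-fold and undetected genes. Further genes were named after their values were seen. Members and lists were chosen with earlier results of these data known. No p-value is given, since there is 1 group of 2 animals.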

Additional observations from a re-analysis of the deposited data

How the results depend on the processing

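No paired analysis was possible because the series has 1 group of 2 libraries. With either embryo left out, the median TPM of the 64 genes was 62.9 to 72.0, 62 genes stayed above a TPM of 1, Eef1a2 was 0.277% to 0.360% of its pair, and the core eIF3 range was 3.53 to 4.72. The count of genes past 2-fold was 1 with DESeq2 size factors, total counts, spike-ins or posterior means. It was 2 by deposited TPM, which added Eef2kmt, 2 with a minimum of 10 summed counts or none, which added Eef1akmt3 on 12 reads, and 4 at 1.5-fold. The median log2 ratio was -0.11 with spike-ins and -0.11 by TPM, where all genes stood at -0.12 and -0.14. Subtracting the length class median, an alternative chosen after the data were seen, gave 39 genes higher in embryo 1 and 23 in embryo 2. Eef1a2 was 0.448% of its pair by counts not divided by length because the effective length of Eef1a1 (1433 and 1391 bases) is below that of Eef1a2 (1985). Eif2ak1 held 62.5% of the kinases by posterior mean TPM, and the cause was not tested. A run of at least 8 pyrimidines, also chosen afterwards, was found in 7 of 48 genes (14.6%), against 9.86% of protein-coding autosomal genes, 10.5% of those detected and 40.7% of ribosomal protein genes. Eef1a1 over Eef1a2, 319-fold on average, was 248-fold for the coding Eef1a1-201 alone, also an alternative added later. Among 32 named genes with a ratio, the sign changed for 2 with DESeq2 size factors or total counts (Eif1 and Eif2b3), 3 with spike-ins, 7 by TPM and 7 after the length class median, all from ratios between -0.06 and 0.21. Depth limits what can be said of the 2 undetected genes and of Eif4ebp3, Eif4ebp1, Eef2kmt and Eif2ak2.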
